A study of Mus musculus with 4 samples.

Results

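The p38 and JNK stress kinase cascade was followed through 9 genes named by their symbols on the array: Map3k8, Map2k3, Map2k6, Map2k4, Map2k7, Mapk14, Mapk8, Mapk9 and Mapkapk2. Every spot that is not a control and carries 1 of these symbols was taken, which gave 21 probes on 39 spots of each array, out of 27962 gene names, 41174 probes and 43379 gene spots in all. Mapk14 and Mapk8 each have 1 probe printed on 10 spots, and the other probes have 1 spot each.

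The study compared mouse mucosal mast cells (MMC), differentiated in vitro and stimulated with IL-18, with unstimulated MMC. On each of 4 arrays of 2 colours, 1 stimulated sample carried the dye Cy5 and its own unstimulated control carried Cy3, and the labels call the 4 pairs biological replicates. Whether the replicates came from separate animals or cultures, the strain, age and sex of the donors, any genetic change, and the dose and duration of IL-18 are all items not given in the sources used here. No array had its dyes exchanged, so a response of a probe to the dye itself cannot be told apart from a response to IL-18.

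Mitogen-activated protein kinases are switched on in relays: a MAP3K phosphorylates a MAP2K, which phosphorylates the MAPK. Map2k3 and Map2k6 act mainly on the p38 kinases, of which Mapk14 (p38 alpha) is the main form in most cells, while Map2k4 and Map2k7 act on the JNK kinases Mapk8 and Mapk9. Mapkapk2 (MK2) is a kinase directly downstream of p38 that governs the stability of many cytokine mRNAs, and in mast cells these relays take part in cytokine production after stimulation. The arrays measured mRNA, and the phosphorylation that switches these kinases was not measured.

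Mapkapk2 mRNA, the downstream arm of p38, was lower in IL-18 stimulated MMC by 1.81-fold on its brighter probe and by 2.19-fold on its dimmer probe (mean log2 ratios of -0.85 ± 0.27 and -1.13 ± 0.33, SD, n = 4). Map2k3 mRNA was 1.35-fold lower and Map2k7 mRNA 1.37-fold lower on the brightest probe of either gene, while Map3k8, a MAP3K also called Tpl2, was 1.36-fold higher. The direction of the Map2k3 and Map2k7 values rested on how the dyes were balanced: when each array was centred on its median in place of loess, their mean log2 ratios became 0.30 and 0.02, and the brighter Mapkapk2 probe no longer passed the test (-0.12, with 2 of 4 arrays above 0). The central kinases Mapk14 and Mapk8 and the activators Map2k4 and Map2k6 did not pass the test on any of their tested probes after loess. Under median centring Mapk14 (0.68), Map2k4 (0.63) and 1 Mapk8 probe (0.28) passed as higher.

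Joint regulation of the 3 genes whose brightest probe passed as lower after loess was not tested. Their promoters are shown because of that call. Each is the window of 250 bases before the first listed transcription start, from RefSeq (assembly GRCm38.p6), on the strand of the gene, and 8 of the 9 genes had an entry, all but Map3k8. Map2k3 lies at chr11:60931804-60932053 (plus strand), Map2k7 at chr8:4238490-4238739 (plus strand, the first of 2 listed starts) and Mapkapk2 at chr1:131097844-131098093 (minus strand). Capitals mark matches, on either strand, to a kB-like motif (GGGNNNNNCC), an AP-1 motif (TGANTCA), a GC box (GGGCGG) or a CCAAT box (CCAAT).
Map2k3: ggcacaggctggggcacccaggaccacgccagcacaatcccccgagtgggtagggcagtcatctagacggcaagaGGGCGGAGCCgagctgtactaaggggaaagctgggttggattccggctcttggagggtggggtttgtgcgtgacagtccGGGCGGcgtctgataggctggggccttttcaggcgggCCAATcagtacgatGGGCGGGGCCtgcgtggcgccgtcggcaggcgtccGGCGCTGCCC
Map2k7: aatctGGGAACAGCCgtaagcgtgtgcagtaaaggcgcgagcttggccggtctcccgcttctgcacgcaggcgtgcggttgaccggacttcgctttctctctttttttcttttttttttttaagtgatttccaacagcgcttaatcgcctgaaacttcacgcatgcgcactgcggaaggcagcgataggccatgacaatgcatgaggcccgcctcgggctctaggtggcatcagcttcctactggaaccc
Mapkapk2: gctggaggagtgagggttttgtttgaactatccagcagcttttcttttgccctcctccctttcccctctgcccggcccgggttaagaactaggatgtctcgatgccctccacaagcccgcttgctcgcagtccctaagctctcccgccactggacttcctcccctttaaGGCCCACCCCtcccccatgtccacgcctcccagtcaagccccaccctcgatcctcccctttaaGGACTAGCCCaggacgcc

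The Map2k3 window held 3 kB-like matches, 3 GC boxes and 1 CCAAT box, and the GC boxes that start at -175 and -45 from the transcription start lie inside kB-like matches. The Mapkapk2 window held 2 kB-like matches, the Map2k7 window 1, and neither held a match to another of these motifs. The AP-1 letters were found in none of the 3 windows and in 6.75% of all 32851 promoters of the same length. The kB-like letters occurred in 45.8% of those promoters, the GC box in 32.7% and the CCAAT box in 33.8%, so a match of this kind is a common description and not a site. The window of the second listed Map2k7 start, not printed here, held an AP-1 match from -92 to -86. In the first listed windows of members not lower on their brightest probe, kB-like matches numbered 9 for Mapk8, 3 for Map2k4 and 1 for Mapk9. Map2k6 and Mapk14 held 0 there. The G+C content of the windows was 67.6% for Map2k3, 54.4% for Map2k7 and 60.4% for Mapkapk2.

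Each array gave 43379 gene spots. Between 49.9% and 54.0% of them were well above background in Cy3, between 57.9% and 62.7% in Cy5, and 0 were saturated. All 10 listed mast cell markers, among them the chymases Mcpt1 and Mcpt2, the receptor Kit and the IgE receptor chain Fcer1a, were above background in both channels on all 4 arrays. So were all 7 macrophage markers, Lyz2 among them, of which Emr1 was higher by a log2 ratio of 0.26 and Csf1r lower at -0.20 after loess. Of the neutrophil markers 1 of 5 met this condition, of the basophil and eosinophil markers 2 of 5, and of the T cell, B cell and fibroblast markers 1 of 4 each. The part of such cells in the results was not tested. In RNA from whole cultures, fewer cells of a type and less RNA per cell cannot be told apart.

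A log2 ratio here is the stimulated signal over the unstimulated signal after background correction and loess, so that 1 is a doubling and -1 a halving. Testing was limited to probes that the scanner software put well above background in 1 given channel on 3 or more arrays. A tested probe was called higher or lower if limma's adjusted p, taken over all 24101 tested probes, was under 0.05. Of the 21 probes of the cascade 15 were tested: 1 was higher, 5 were lower and 9 were not called. Among all tested probes 24.1% were higher and 24.1% lower, 48.2% in either direction, so 6 calls in 15 lie near the background of the whole array. Counted by the brightest tested probe, 1 gene of the 9 was higher and 3 were lower, against 26.2% and 20.7% of all 16969 tested genes. The median log2 ratio of the 15 probes was -0.08, and that of all tested probes was 0.01.

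**Figure D1:**
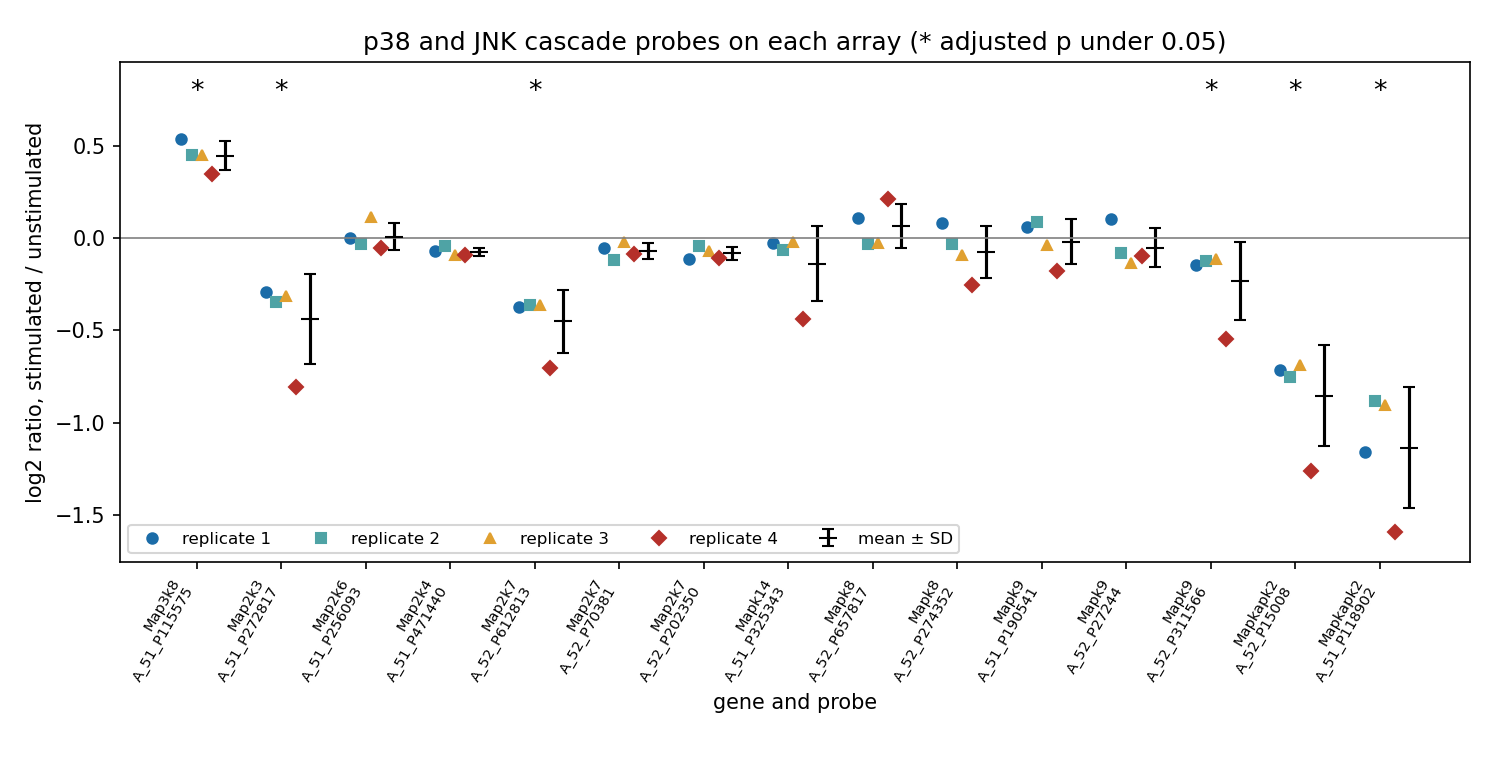
Log2 ratios (stimulated over unstimulated, after loess) of the 15 tested probes, 1 point per array, with the mean ± SD of 4 arrays in black and a star over the 6 probes called at an adjusted p under 0.05. Both Mapkapk2 probes lie lowest and Map3k8 highest, and replicate 4 lies below the other 3 arrays for every probe called lower. The directions of Map2k3, the called Map2k7 probe and the called Mapk9 probe turn when arrays are centred on the median.

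Map3k8 (probe A_51_P115575, NM_007746) encodes a MAP3K that inflammatory receptors release from the NF-kB precursor protein p105 and that activates mainly the ERK relay. Its raw brightness in the stimulated channel was 161, 154, 156 and 153 on replicates 1 to 4, and in the unstimulated channel 93.3, 104, 95.9 and 99.6. The stimulated signals lay within a narrow range on a dim spot, at the 24.3rd percentile of brightness among tested probes. After normalization the levels on the log2 scale were 7.16, 7.17, 7.31 and 7.18 in stimulated MMC and 6.62, 6.72, 6.86 and 6.83 in their controls. The groups did not overlap, and every stimulated sample was above its own control.

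The log2 ratios of Map3k8 were 0.54, 0.45, 0.45 and 0.35, with a mean of 0.45 ± 0.08 (SD, n = 4) and a limma adjusted p of 5.0e-04. After loess it was the single member called higher. It was also called higher when arrays were centred on the median (0.58). Under that setting 8 member probes were higher, Mapk14 (0.68) and Map2k4 (0.63) among them. The size depended on how background was removed from so dim a spot. With no offset added after background correction the mean was 0.79, and the scanner software's own ratios were 1.59, 1.15, 1.15 and 0.90, a 2.29-fold difference. By either measure the ratio of replicate 1 was the highest and that of replicate 4 the lowest.

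Map2k3 (A_51_P272817, NM_008928) encodes MKK3, an activator of p38. Its levels were 11.88, 11.64, 11.76 and 11.81 on the log2 scale in stimulated MMC and 12.17, 11.98, 12.07 and 12.61 in the controls. The groups did not overlap, and the control of replicate 4 stood highest. The log2 ratios were -0.29, -0.35, -0.31 and -0.80, with a mean of -0.44 ± 0.24 (SD, n = 4) and a limma adjusted p of 0.00637. Without replicate 4 the mean was -0.32 and the probe still passed. Under median centring the mean of Map2k3 turned to 0.30, which passed as higher, but lay -0.05 from the shift of all tested probes described further on. That shift is 1 value for probes of every brightness, so any trend with brightness remains in such differences.

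Map2k6 encodes MKK6, the other activator of p38, and was near the limit of detection. Probe A_51_P256093 (NM_011943) had raw signals of 104, 89.6, 80.5 and 102 in the stimulated channel and 99.5, 98.1, 79.7 and 98.5 in the unstimulated one. Its mean log2 ratio was 0.01 ± 0.07 (SD, n = 4), with a 95% interval from -0.10 to 0.11 and a limma adjusted p of 0.892. The groups overlapped, and either channel held the higher signal on part of the arrays. The other Map2k6 probes, A_52_P299915 and A_52_P395242, were not well above background on any array in either channel and were not tested.

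Map2k4 (A_51_P471440, NM_009157) encodes MKK4, which acts on JNK and also on p38. Its log2 ratios were -0.07, -0.05, -0.09 and -0.09, close to each other, with a mean of -0.08 ± 0.02 (SD, n = 4). The limma adjusted p was 0.142 and the 95% interval ran from -0.16 to 0.01. All 4 arrays had the same sign, yet levels overlapped, from 11.51 to 11.65 in stimulated MMC and from 11.60 to 11.72 in the controls. Under median centring the Map2k4 mean was 0.63, which passed as higher and was 0.27 above the shift of all tested probes.

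Map2k7 encodes MKK7, an activator specific to JNK, and its 4 probes differed. The brightest, A_52_P612813 (BC070467), had levels of 8.83, 8.61, 8.74 and 8.76 in stimulated MMC and 9.20, 8.97, 9.10 and 9.47 in the controls. The groups did not overlap. Its log2 ratios were -0.37, -0.36, -0.36 and -0.71, with a mean of -0.45 ± 0.17 (SD, n = 4) and a limma adjusted p of 0.00195. The first 3 replicates lay within 0.01 of each other and replicate 4 lay well below them, and the mean was -0.37 without replicate 4. Under median centring the sign turned, to 0.02, which did not pass the test and was -0.34 relative to the shift of all tested probes.

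The dimmer Map2k7 probes A_52_P202350 (NM_011944) and A_52_P70381 (AK028772) had mean log2 ratios of -0.08 and -0.07, with limma adjusted p of 0.118 and 0.181. Within arrays the difference of the brightest probe from these was -0.37 ± 0.16 and -0.38 ± 0.16 (SD, n = 4). All 3 means had the same sign, and the dim probes lay at or below the 9.46th percentile of brightness. The scanner software gave A_52_P202350 a ratio of -0.31 and A_52_P70381 a ratio of -0.03, and the former then passed the test. Under median centring the means of these dim probes stayed negative, at -0.12 and -0.10, and A_52_P202350 passed as lower. The 4th probe, A_51_P231721 (AF026216), was not well above background on any array and was not tested.

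Mapk14 (A_51_P325343, NM_011951), p38 alpha itself, had bright spots, at the 89.9th percentile of tested probes. Its levels in stimulated MMC were 12.65, 12.63, 12.63 and 12.60, and those in the controls were 12.68, 12.69, 12.65 and 13.04. The stimulated levels hardly varied. The controls of replicates 1, 2 and 4 lay above every stimulated level, and only that of replicate 3 fell within their range. The log2 ratios were -0.03, -0.06, -0.02 and -0.44, with a mean of -0.14 ± 0.20 (SD, n = 4), a 95% interval from -0.32 to 0.04 and a limma adjusted p of 0.167. Without replicate 4 the Mapk14 mean was -0.04. Under median centring of all 4 arrays it was 0.68, which passed as higher and was 0.32 above the shift of all tested probes.

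The 10 spots of the Mapk14 probe show how closely spots of 1 probe repeat on an array. They share the array's 2 labelled samples and its dye balance, so the spread between spots does not hold errors in those. The SD between spots was 0.04, 0.02, 0.02 and 0.02 on replicates 1 to 4. On replicate 4 all 10 spots lay between -0.47 and -0.41, and on the other arrays all spots lay between -0.13 and 0.03.

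**Figure D2:**
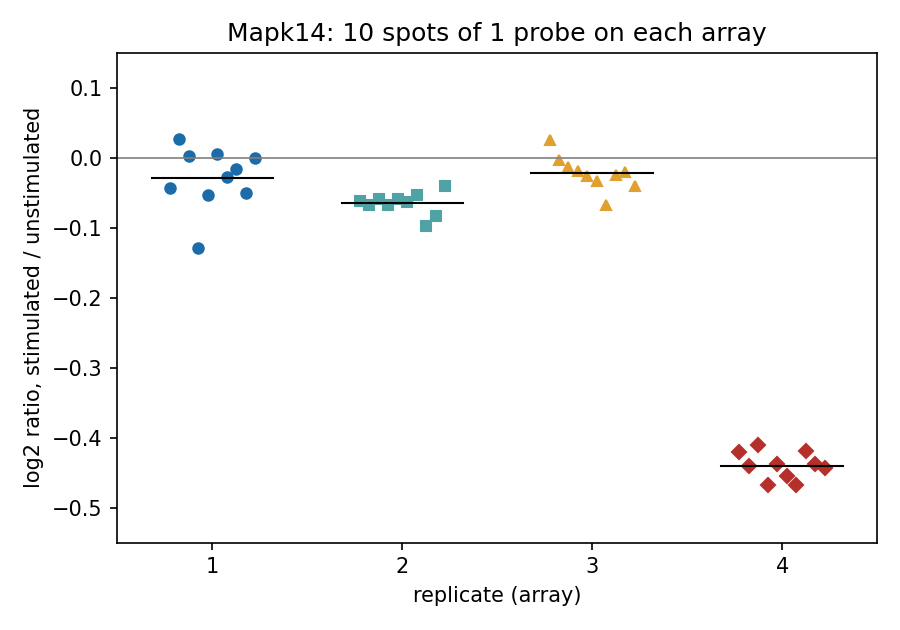
Log2 ratios of the 10 Mapk14 spots on each array after loess, with a black line at the mean of each array. The spots of replicate 4 sit between -0.47 and -0.41, apart from those of the other 3 arrays, which sit between -0.13 and 0.03, and under median centring the mean of Mapk14 over arrays is 0.68 in place of -0.14.

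Mapk8 encodes JNK1 and has 5 probes, of which 2 were tested. Probe A_52_P657817 (AK163829) had log2 ratios of 0.11, -0.03, -0.03 and 0.21, with a mean of 0.07 ± 0.12 (SD, n = 4) and a limma adjusted p of 0.346. Probe A_52_P274352 (BC053027) had ratios of 0.08, -0.03, -0.09 and -0.26, with a mean of -0.07 ± 0.14 (SD, n = 4) and a limma adjusted p of 0.328. Both probes crossed 0 between arrays, and on replicate 4 they went opposite ways, so that their difference was 0.47 there and at most 0.06 elsewhere. Under median centring the mean of A_52_P657817 was 0.28 and passed as higher, which is -0.08 relative to the shift of all tested probes.

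The Mapk8 probe with 10 spots, A_51_P357182 (NM_016700), was not well above background in either channel on any array. Its mean raw signals on replicate 1 were 59.3 in Cy5 and 77.3 in Cy3, where the negative control spots had medians of 49.6 and 73.2. The probes A_52_P558382 (AK039129) and A_52_P559044 (AK085745) were also not well above background on any array. The 5 Mapk8 probes thus differ in whether the mRNA was detected at all, and probe sequences were not used here.

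Mapk9 encodes JNK2 and has 3 probes, all well above background on every array. Probe A_51_P190541 (NM_016961) had log2 ratios of 0.06, 0.09, -0.04 and -0.18, with a mean of -0.02 ± 0.12 (SD, n = 4) and a limma adjusted p of 0.793. Probe A_52_P27244 (NM_207692) had a mean of -0.05 ± 0.11 (SD, n = 4) and a limma adjusted p of 0.421. Neither moved beyond the spread of its arrays after loess. Under median centring their means were 0.51 and 0.39, or 0.15 and 0.03 above the shift of all tested probes, and both passed as higher.

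The third Mapk9 probe, A_52_P311566, is annotated to the same transcript NM_016961 as the first. Its log2 ratios were -0.15, -0.12, -0.12 and -0.55, with a mean of -0.23 ± 0.21 (SD, n = 4), and it passed narrowly as lower with a limma adjusted p of 0.0426. Its levels overlapped, from 8.14 to 8.38 in stimulated MMC and from 8.29 to 8.84 in the controls. The call was lost without replicate 1, 2 or 3 (means of -0.26, -0.27 and -0.27) and kept without replicate 4 at a mean of -0.13. It was lost with the scanner software's ratios (-0.27). Under median centring the mean turned to 0.17, which passed narrowly as higher. Within each array A_51_P190541 exceeded A_52_P311566 by 0.20, 0.21, 0.08 and 0.37, a mean of 0.21 ± 0.12 (SD, n = 4), so 2 probes of 1 transcript did not give 1 value.

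Mapkapk2 had the mean log2 ratios farthest from 0 among the 9 genes after loess, on both of its probes (NM_008551). On the brighter probe, A_52_P15008, the levels were 11.31, 11.50, 11.56 and 11.62 in stimulated MMC and 12.03, 12.25, 12.25 and 12.88 in the controls. Every control was above every stimulated sample. The log2 ratios were -0.71, -0.75, -0.68 and -1.26, with a mean of -0.85 ± 0.27 (SD, n = 4), a 95% interval from -1.08 to -0.63 and a limma adjusted p of 7.2e-04.

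The dimmer Mapkapk2 probe, A_51_P118902, had levels of 8.47, 8.62, 8.62 and 8.63 in stimulated MMC and 9.62, 9.50, 9.53 and 10.22 in the controls. The groups did not overlap here either, and the control of replicate 4 was again the highest. Its log2 ratios were -1.16, -0.88, -0.90 and -1.59, with a mean of -1.13 ± 0.33 (SD, n = 4) and a limma adjusted p of 4.9e-04. Within arrays the brighter probe exceeded the dimmer one by 0.44, 0.13, 0.22 and 0.33. Without replicate 4 the means were -0.72 and -0.98, and both probes still passed.

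Under median centring the dimmer Mapkapk2 probe stayed past the threshold at -0.64, and the brighter one was no longer called at -0.12. On the brighter probe the median-centred ratios were 0.07, -0.10, 0.02 and -0.45, so 2 of 4 arrays were above 0 and the mean without replicate 4 was -0.0028. Relative to the shift of all tested probes the means were -0.997 and -0.47. Raw brightness, before the dyes were balanced, ran otherwise: on the brighter probe Cy5 and Cy3 read 4347 and 3285 on replicate 1, 4163 and 3665 on replicate 2, 3920 and 3043 on replicate 3, and 4350 and 4659 on replicate 4. The stimulated channel was the brighter one there on replicates 1 to 3 and the dimmer one on replicate 4.

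**Figure D3:**
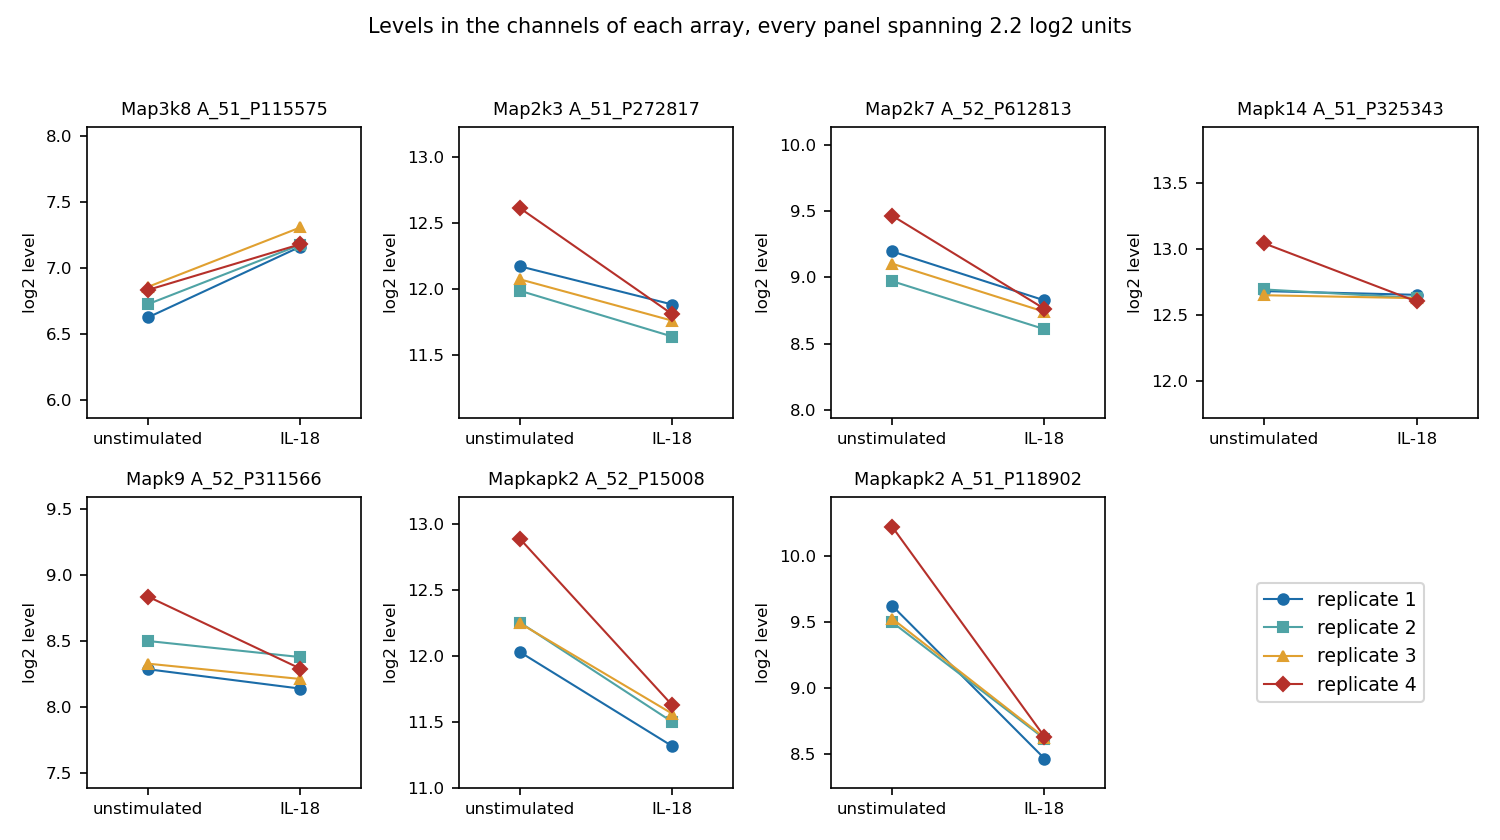
Normalized log2 levels of 7 probes in the unstimulated (Cy3) and stimulated (Cy5) channel, with a line joining the samples of 1 array. For Map2k3, Map2k7, Mapk14, Mapk9 and Mapkapk2 the control of replicate 4 (red) is the highest of its group while its stimulated level lies near the others. The downward direction of Map2k3, Mapk14 and the Map2k7 and Mapk9 probes shown turns under median centring.

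Replicate 4 stood apart on many of these probes. On the 5 probes called lower and on Mapk14, its ratio was the lowest of the 4 and its control level the highest, while its stimulated level stayed near those of the other arrays. The SD of log2 ratios over all tested probes was 0.38 on replicate 4 and 0.28, 0.27 and 0.26 on replicates 1 to 3, so the wider spread was seen over the whole array. Replicates 1 and 2 lay on 1 slide and 3 and 4 on another. The mean log2 ratio on the first and second slide was -0.73 and -0.97 for the brighter Mapkapk2 probe, -0.32 and -0.56 for Map2k3, -0.37 and -0.54 for the brightest Map2k7 probe, and 0.49 and 0.40 for Map3k8. With the slide as a block, random or fixed, all 15 probes kept their calls.

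The way the dyes were balanced changed more calls than leaving out any array. Centring an array on the median of its spots leaves in place any trend of the ratio with brightness, which loess removes. It raised the median of all tested probes by 0.36, and 91.7% of calls were then higher, against 50% after loess. Of the 15 probes of the cascade 8 were then higher and 2 lower, in place of 1 and 5. After subtraction of that shift, both Mapkapk2 probes (-0.47 and -0.997) and the brightest Map2k7 probe (-0.34) were below 0. So were dim probes not called after loess, namely the dimmer Map2k7 probes (-0.48 and -0.46), Mapk8 A_52_P274352 (-0.37) and Map2k6 A_51_P256093 (-0.33). Map2k3 (-0.05) was near 0, and Map3k8 (0.22), Map2k4 (0.27) and Mapk14 (0.32) were above it. The shift is 1 value for all probes, so any trend with brightness stays in these differences. Such a trend cannot be told apart there from a change in expression. The scanner software's ratios, which use their own dye balance, gave -0.83 and -1.24 for Mapkapk2, -0.41 for Map2k3, -0.51 for Map2k7 and 1.20 for Map3k8, all past the threshold.

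**Figure D4:**
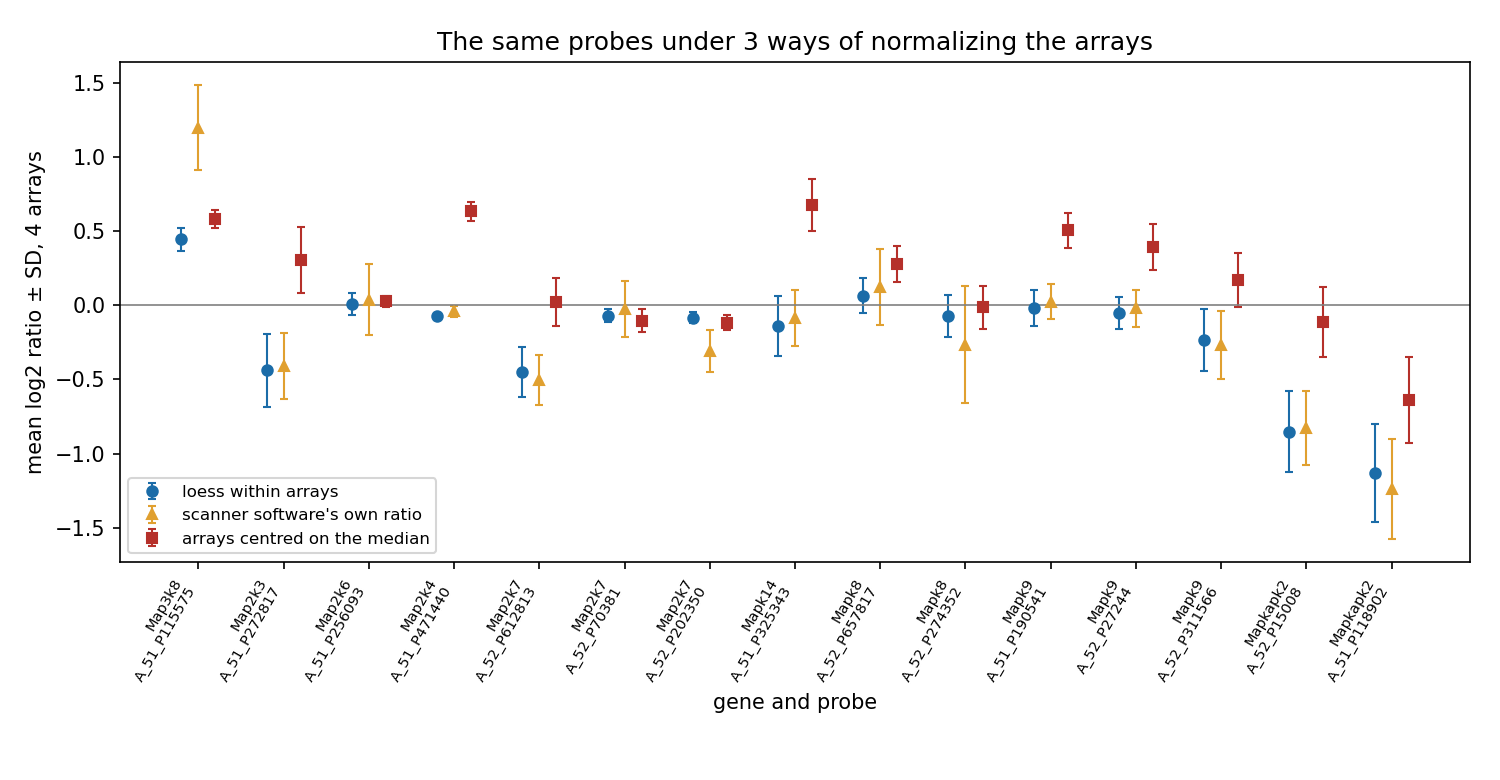
Mean log2 ratio ± SD over 4 arrays of the 15 tested probes after loess, in the scanner software's own ratios, and with each array centred on its median. Loess and the software's ratios lie farthest apart on the dim probes Map3k8 (0.45 and 1.20), Map2k7 A_52_P202350 (-0.08 and -0.31) and Mapk8 A_52_P274352 (-0.07 and -0.27), while median centring moves Map2k3 (0.30), Map2k4 (0.63), Mapk14 (0.68) and the Mapk9 probes above 0.

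The genes whose 4 ratios lay nearest to those of the brighter Mapkapk2 probe, by Euclidean distance over the arrays among all tested genes with a plain symbol, were Fermt3, Rin3 and Smarcd2. Fermt3, an activator of integrins in blood cells, lay at a distance of 0.04, with ratios of -0.71, -0.74, -0.65 and -1.26. Rin3, an exchange factor for Rab5 GTPases, had a mean of -0.87 at a distance of 0.06, and Smarcd2, a subunit of a chromatin remodelling complex, a mean of -0.85 at 0.09. These genes were chosen for this likeness, which therefore has no test.

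Around the 9 members, 61 other genes of the cascade were read from the same fit, in groups by role. Of these, 56 were tested: 14 were higher, 14 lower and 28 not called after loess, and 47 were higher and 1 lower under median centring. Their median log2 ratio after loess was 0.00094, beside 0.03 for all tested genes. The shares, 14 of 56 in either direction, lie near the 26.2% and 20.7% of all genes. The lists were chosen with earlier results known, and a difference between roles was not tested.

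Among the 7 upstream adaptors 3 were higher and 1 lower by their brightest probe, beside 26.2% higher and 20.7% lower among all tested genes. Tab2 was not called on its brightest probe, but its other tested probe was lower at -0.54. Nfkb1, whose product p105 holds Map3k8 protein inactive, rose by a mean log2 ratio of 0.40 ± 0.14 (SD, n = 4), with 4 of its 4 probes called higher. Traf2, an adaptor of TNF receptors, rose by 0.26 ± 0.07 (SD, n = 4). Tab1, a partner of the MAP3K Tak1, was lower at -0.25 ± 0.08 (SD, n = 4), though median centring turned it to 0.53.

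Among the 14 other MAP3K genes 8 were lower and 1 higher after loess, with a median of -0.22. Of all tested genes 20.7% were lower and 26.2% higher. Map3k5 (Ask1), a kinase activated by oxidative stress, had ratios of -0.51, -0.53, -0.35 and -0.68, and Map3k10 (Mlk2) had ratios of -0.41, -0.49, -0.43 and -0.71. Their means were -0.52 ± 0.13 and -0.51 ± 0.14 (SD, n = 4), and both turned to 0.03 under median centring. The other tested Map3k10 probe was at -0.04 and not called. With the mean of its probes Map3k10 was at -0.27 and still called. Map3k3 (Mekk3) was lower at -0.44 ± 0.24 (SD, n = 4) and was no longer called under median centring (-0.09). The single MAP3K besides Map3k8 that was higher was Map3k6, at 0.34 ± 0.12 (SD, n = 4), named after its value was seen.

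Of 10 other MAPK and MAP2K genes 8 were tested, of which 3 were lower and 5 not called after loess. Map2k5, the activator of Erk5, was lower at -0.68 ± 0.22 (SD, n = 4) on its brightest probe and also lower under median centring (-0.33). Its other tested probe was at -0.08 and not called. With the mean of its probes Map2k5 was at -0.38 and still called. Mapk3 (Erk1) and its activator Map2k2 (Mek2) were lower at -0.37 ± 0.12 and -0.23 ± 0.13 (SD, n = 4), and median centring turned them to 0.32 and 0.49. The call of Map2k2 was lost without replicate 2 (-0.23) and with the background fitted on all spots (-0.21). The further p38 forms Mapk11 and Mapk13 were not called (-0.01 and 0.08), and Mapk12 and the third JNK gene Mapk10 had no tested probe.

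None of the 5 scaffold genes was called in limma's fit, although 2 of them had an unadjusted p under 0.05. Spag9, which holds JNK relays together, had the largest ratio at 0.17 ± 0.14 (SD, n = 4) with a limma adjusted p of 0.0513, and of its 6 probes 1 was higher and 2 were lower. That absence of calls rests on the setting, since Spag9 was called higher with the slide as a random block (adjusted p 0.0484) or a fixed one (0.0164), with scale normalization (0.0381), with a trended and robust eBayes (0.0287), with no background subtraction (0.0465), with the background fitted on all spots (0.0431), without replicate 1 (0.0483) and under median centring. With the mean of its probes Spag9 was not called (0.0021). Of 6 kinases downstream of p38 beside Mapkapk2, 2 were lower after loess and 4 not called. Mknk2, which phosphorylates the translation factor eIF4E, was lower at -0.50 ± 0.11 (SD, n = 4), and Rps6ka4 (Msk2), a nuclear kinase, at -0.19 ± 0.14 (SD, n = 4), and median centring turned them to 0.48 and 0.46. The call of Rps6ka4 was lost without replicate 1, 2 or 3 (-0.20, -0.22 and -0.22) and its mean was -0.12 without replicate 4. It was also lost with the scanner software's ratios and the deposited table (-0.16 in each), with no offset (-0.18) and with the background fitted on all spots (-0.15). Mapkapk3, the nearest relative of Mapkapk2, had ratios of -0.06, -0.03, 0.06 and -0.50 and was not called.

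Of 11 substrates 9 were tested, of which 5 were higher and 4 not called, beside 26.2% higher among all tested genes. Mef2a, a transcription factor phosphorylated by p38, had ratios of 0.43, 0.45, 0.53 and 0.59 and a mean of 0.50 ± 0.07 (SD, n = 4) on its brightest probe, while another of its 3 probes was lower. With the mean of its probes the Mef2a value was 0.06 and the call was lost. Zfp36 (tristetraprolin), an mRNA decay factor that Mapkapk2 phosphorylates, rose by 0.29 ± 0.10, and Atf2, a partner of Jun, rose by 0.23 ± 0.08 (SD, n = 4). All 3 stayed higher under median centring (0.97, 0.64 and 0.77). The other tested Zfp36 probe was at 0.12 and not called. With the mean of its probes Zfp36 was at 0.20 and still called.

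Of 8 phosphatases 7 were tested, of which 5 were higher and 2 not called by their brightest probe, with a median of 0.21. The share higher among all tested genes was 26.2%. Dusp1 (MKP-1), which removes the activating phosphates from p38 and JNK, had ratios of 0.87, 0.73, 1.07 and 0.73, a mean of 0.85 ± 0.16 (SD, n = 4) and a limma adjusted p of 2.2e-04. Dusp4 and Dusp16, phosphatases of the same family, rose by 0.29 ± 0.10 and 0.22 ± 0.09 (SD, n = 4), and 1 of the 2 Dusp4 probes was lower. With the mean of its probes Dusp4 was at 0.03 and no longer called, and Dusp16 was at 0.11 and still called. These 3 genes were higher under median centring too (1.30, 1.17 and 0.88).

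**Figure D5:**
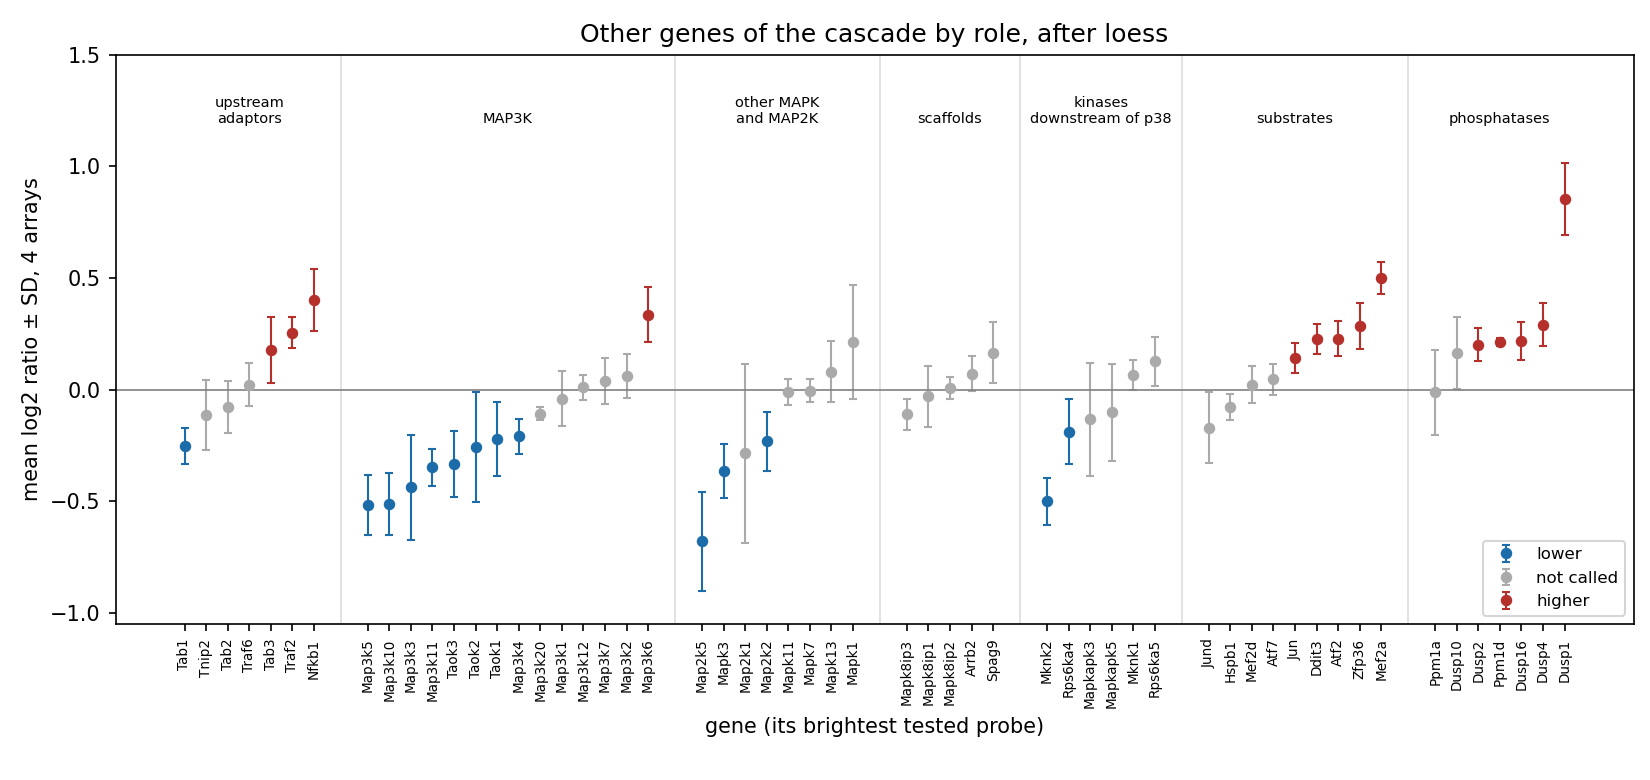
Mean log2 ratio ± SD over 4 arrays, after loess, of the 56 tested genes around the members, by role, with called genes in red (higher) and blue (lower). Calls among MAP3K genes are mostly lower (8 of 14) and those among substrates (5 of 9) and phosphatases (5 of 7) are higher, whereas under median centring 47 of the 56 are higher and 1 is lower. Of all tested genes 26.2% were higher and 20.7% lower after loess, and the lists were chosen with earlier results known.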

How the data were processed

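Intensity was taken as the mean signal of a spot and the median of its local background, for either dye, written by the authors with Agilent Feature Extraction 9.1 per the labels' protocols. The deposited files and a deposited table also hold log10 ratios with the authors' own dye balance, used here as alternatives. The labels name no genome build. Background was corrected with normexp (offset 50) and log2 ratios of the deposited Cy5 over Cy3 intensities were balanced by loess in limma 3.58.1 (R 4.3.3). Spots whose local background was over 5 times the array median, 7, 0, 2 and 1 on replicates 1 to 4 and none of a member, were left out of that fit, a choice made after seeing the data. Control and outlier-flagged spots were left out too. Spots of 1 probe were averaged, and a gene is its brightest tested probe. The mean of 4 ratios, each a paired difference, was tested against 0 with lmFit and eBayes, two-sided, and p-values were adjusted by Benjamini-Hochberg across every tested probe. The steps were also run on simulated data with changes put in and independent noise on each spot. That simulation held no response of single probes to a dye, so it cannot address that limit. Levels are single channels after Aquantile scaling. The smallest p that exact sign flips of 4 arrays allow is 0.125, so none is given. Members and lists were chosen with earlier results of these data known. Named genes are all members, up to 3 called genes of each role with the largest ratios or else the largest 1, and the 3 genes nearest to the strongest member. Symbols were updated through RefSeq accessions for 24913 of 43379 gene spots. Figures were drawn with matplotlib 3.10.9. Alternatives were other background corrections, dye balances, filters and fits, the slide as a block, and leaving out each replicate.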

Additional observations from a re-analysis of the deposited data

Results flagged for a closer look

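In 6 of 33 log2 ratios examined, 1 array lay far from the other 3 by Dixon's ratio at its 95% critical value, and in each of them it was replicate 4, the lowest. Chance flags about 1 group in 20, and these probes share the array. They were Mapk14 (mean -0.14), Map2k3 (-0.44), the Mapk9 probe A_52_P311566 (-0.23), the brighter Mapkapk2 probe (-0.85), the Map2k7 probe A_52_P612813 (-0.45) and, among the other genes of the cascade, Mapk3 (-0.37). Without replicate 4 these means were -0.04, -0.32, -0.13, -0.72, -0.37 and -0.30.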

How the results depend on the processing

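Limits: 4 arrays of a single dye orientation set the precision, 6 of the 21 probes were not well above background, and apart from the fit on all spots the cause of a change was not tested. No paired analysis beside the main one was possible because the ratio on an array already is the difference within 1 pair and the labels give 1 group. Median centring moved every count: 16549 probes higher and 1504 lower, 12489 genes higher and 665 lower, 8 member probes higher and 2 lower, and 47 pathway genes higher and 1 lower. It turned the sign of Map2k3 (0.30), Map2k4 (0.63), the brightest Map2k7 probe (0.022), the Mapk9 probes A_51_P190541, A_52_P27244 and A_52_P311566 (0.51, 0.39 and 0.17), Mapk14 (0.68), Tab1 (0.53), Map3k5 (0.031), Map3k10 (0.033), Mapk3 (0.32), Map2k2 (0.49), Mknk2 (0.48) and Rps6ka4 (0.46). Fitting the background on all spots, an alternative added after seeing the data, left 2322 genes lower and called 34.2% of probes in place of 48.2%, because a few spots of replicate 1 with local background up to 32442 set the estimated background there at -381 in Cy3 in place of 29.4. Leaving out 1 replicate gave 2660 to 4747 genes higher, 2394 to 3672 lower, 3464 to 6187 probes higher and 4103 to 6008 lower, the lowest values without replicate 2; member probes called lower were 4 or 5 and called higher 1. Under the other alternatives member probes called higher stayed at 1 and called lower at 4 to 6. Apart from median centring, 2 of the 15 tested member probes changed their call: the Mapk9 probe A_52_P311566 was lost with the software's ratios, the deposited table (-0.27 in each), no background subtraction (-0.22), the all-spots fit (-0.20) or without replicate 1, 2 or 3, and the Map2k7 probe A_52_P202350 became called with the software's ratios, the deposited table (-0.31 in each) or no offset (-0.18). With no filter on dim probes the Mapk8 probe A_52_P559044 (-0.12), which was not well above background on any array, was also called lower. With the mean of a gene's probes Mef2a (0.06) and Dusp4 (0.03) lost their calls.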
